A study of Patiria miniata with 16 samples.

Results

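Smad5-like (LOC119727472), kielin/chordin-like protein (LOC119721939) and follistatin-related protein 5-like (LOC119732438) are 3 of the 27818 genes counted in embryos of Patiria miniata, the bat sea star. They were chosen by name from earlier results of these libraries, as a BMP signal transducer and a pair of secreted proteins that differed between embryos collected in beta-aminopropionitrile (BAPN) and untreated controls. Their differences from the controls, and differences between such differences, are therefore given as descriptions with no p-value. All 3 passed the filter on low counts, which kept 17519 genes.

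The study sequenced polyadenylated RNA of pools of at least 200 whole wild-type embryos in 16 libraries, 2 in each of 8 groups. BAPN inhibits the lysyl oxidases that cross-link collagen, and the study asks how the collagenous matrix bears on germline gene expression. Of the 5 treated groups, 4 were collected in BAPN: from hatched blastula to day 2, from gastrula to day 3, from hatched blastula to day 4, and from gastrula to day 4. The recovery group had BAPN from hatched blastula to day 2, after which it was removed, and is labelled day 4. Untreated controls were collected at day 2, day 3 and day 4. Each treated group pairs a library at 1.2 mM BAPN with one at 0.8 mM, and its spread includes any effect of dose. The gastrula to day 4 and recovery groups have no labelled control and were set against the day 4 controls, which the blastula to day 4 group also uses. Nothing in the labels shows that libraries of one group are separate cultures, and p-values reflect the spread between these libraries alone. In pooled whole embryos, fewer cells of a type and less RNA per cell cannot be told apart.

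Bone morphogenetic proteins (BMPs) are secreted ligands that bind paired serine/threonine kinase receptors. The receptors phosphorylate Smad1 and Smad5, which enter the nucleus with the shared partner Smad4 and regulate target genes, while Smad6 inhibits the pathway. Outside the cell, proteins with cysteine-rich chordin domains bind BMPs, and tolloid proteinases cleave chordin. Kielin/chordin-like protein enhances BMP signalling in mouse. Follistatin itself binds activins and some BMPs; follistatin-related protein 5 shares its Kazal-type domain, and no role of it in BMP signalling is taken for granted here. In sea urchin embryos, nodal and BMP2/4 pattern the dorsal-ventral axis.

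The Smad5-like gene lies on the plus strand of scaffold NW_024037059.1 from 14031748 to 14051397 in the Pmin_3.0 build and has 1 transcript of 2325 bases. The table lists an MH1 and an MH2 domain for it, the paired domains of Smad proteins. The kielin/chordin-like gene lies on the plus strand of NW_024037052.1 from 5142705 to 5280261, with 2 transcripts and a deposited length of 14714 bases. The follistatin-related 5-like gene lies on the plus strand of NW_024037063.1 from 3577239 to 3599501, with 4 transcripts, a deposited length of 6079 bases, a Kazal-type domain and immunoglobulin domains. Names ending in "-like" were transferred by similarity.

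Total counts per library ran from 9945801 to 14383817. Levels are CPM, counts scaled to a common library size with TMM, whose factors ran from 0.874 to 0.987 in the 8 BAPN libraries, 0.994 to 1.143 in the 6 controls, and 1.121 and 1.067 in recovery. The share of ribosomal RNA genes was 0.323% to 0.977% in 13 libraries, but reached 3.2% in the second day 4 control and 2.02% and 1.34% in recovery. The median log2 change of all genes under BAPN, over the 3 windows that have labelled controls, was -0.07 with TMM and -0.29 when libraries were scaled by total counts only.

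The transducer was higher in every library collected in BAPN than in any control. Smad5-like stood at 112 and 106 CPM in the day 2 controls, 88.4 and 85.6 CPM in the day 3 controls, and 80.9 and 81.4 CPM in the day 4 controls. It stood at 681 CPM in both blastula to day 2 libraries and at 408 and 420 CPM in the gastrula to day 3 libraries. At day 4 it stood at 717 and 621 CPM after the blastula start and at 507 and 437 CPM after the gastrula start. The 8 libraries collected in BAPN and the 6 controls did not overlap, and the lowest of the former (408 CPM) lay well above the highest of the latter (112 CPM). The share of all genes without overlap was not counted, in this or in later comparisons of libraries. In the recovery libraries Smad5-like was at 74.9 and 91.2 CPM, 1 below and 1 above both day 4 controls.

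As a log2 change ± SE, Smad5-like was 2.65 ± 0.07 higher over the 3 windows with their own controls, or 6.26-fold. By window the log2 change was 2.64 ± 0.13 for blastula to day 2, 2.25 ± 0.13 for gastrula to day 3, 3.04 ± 0.13 for blastula to day 4 and 2.54 ± 0.13 for gastrula to day 4. The recovery libraries differed from the day 4 controls by 0.03 ± 0.12. In these comparisons 58.3%, 41.5%, 32.2%, 51.7%, 46.1% and 15.9% of all tested genes passed an adjusted p of 0.05 in either direction, in the order given.

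The kielin/chordin-like gene was lower in each BAPN group than in the controls of its day. Its level was 52.7 and 45.6 CPM in the day 2 controls, 119 and 106 CPM in the day 3 controls, and 138 and 136 CPM in the day 4 controls. It was 21 and 21.9 CPM in blastula to day 2, 50.3 and 60.1 CPM in gastrula to day 3, 31.4 and 27.8 CPM in blastula to day 4, and 47.5 and 51.1 CPM in gastrula to day 4. Within each day the BAPN and control libraries did not overlap, although the gastrula groups lay at about the level of the day 2 controls. The recovery libraries, at 148 and 127 CPM, lay 1 above and 1 below the day 4 controls.

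The kielin/chordin-like log2 change was -1.48 ± 0.09 over the 3 windows, or 2.78-fold lower. It was -1.2 ± 0.15 for blastula to day 2, -1.02 ± 0.14 for gastrula to day 3, -2.21 ± 0.15 for blastula to day 4 and -1.47 ± 0.15 for gastrula to day 4. For recovery against the day 4 controls it was 0.01 ± 0.14.

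The follistatin-related 5-like gene was also lower in each BAPN group than in the controls of its day, and unlike the other two it was low in recovery. Its level was 9.45 and 3.67 CPM in the day 2 controls, 24.2 and 29.5 CPM in the day 3 controls, and 103 and 114 CPM in the day 4 controls. It was 2.04 and 1.52 CPM in blastula to day 2, from 24 and 15 counts, and 20 and 18.1 CPM in gastrula to day 3. At day 4 it was 4.44 and 2.54 CPM after the blastula start and 17 and 14 CPM after the gastrula start. The day 2 controls differed from each other more than any other pair, so the day 2 comparison is the least precise. The recovery libraries, at 17 and 14.2 CPM, lay below both day 4 controls, below both day 3 controls and above both day 2 controls.

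The follistatin-related 5-like log2 change was -2.44 ± 0.19 over the 3 windows, or 5.44-fold lower. It was -1.87 ± 0.39 for blastula to day 2, -0.49 ± 0.28 for gastrula to day 3, -4.96 ± 0.35 for blastula to day 4 (31.1-fold lower) and -2.81 ± 0.3 for gastrula to day 4. For recovery against the day 4 controls it was -2.8 ± 0.3, or 6.96-fold lower. The day 2 value ran from -2.41 without day 2 control replicate 2 to -1.08 without day 2 control replicate 1.

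**Figure D1:**
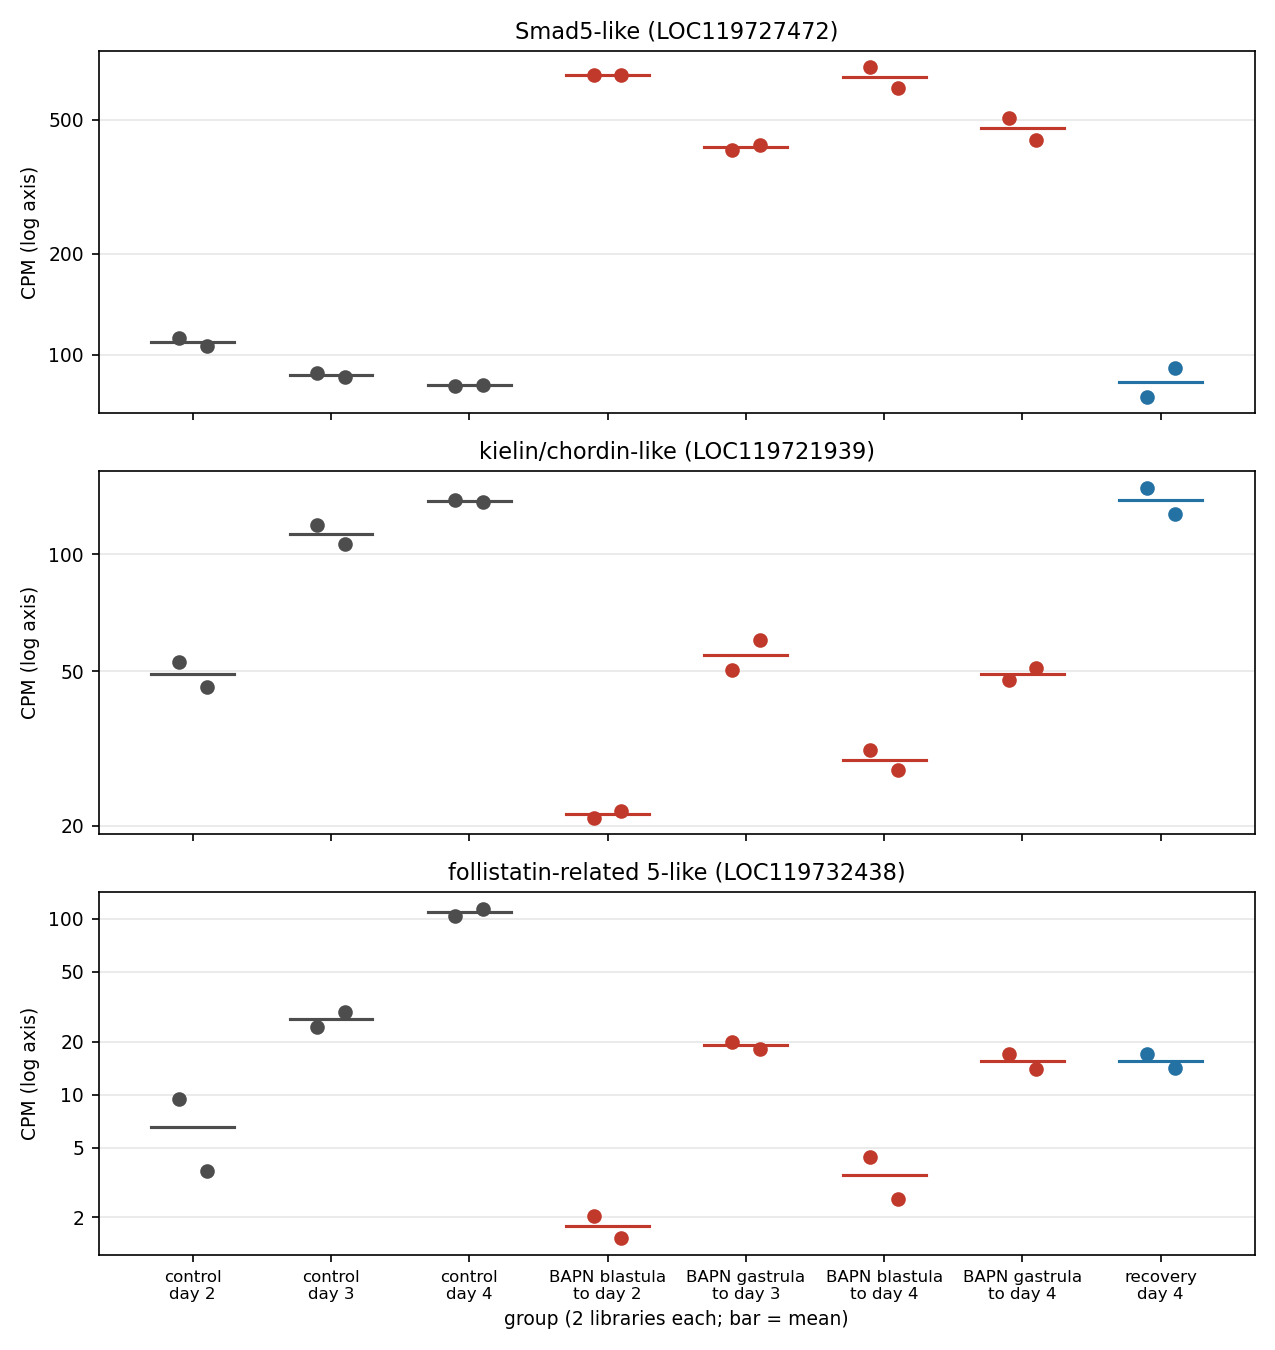
Level of each gene in CPM (log axis) in the 16 libraries, by group; points are libraries and bars are the means of 2 libraries. Smad5-like is at 408 to 717 CPM in the 8 libraries collected in BAPN and at 74.9 to 112 CPM in the other 8, and follistatin-related 5-like in recovery lies below the day 4 controls.

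**Figure D2:**
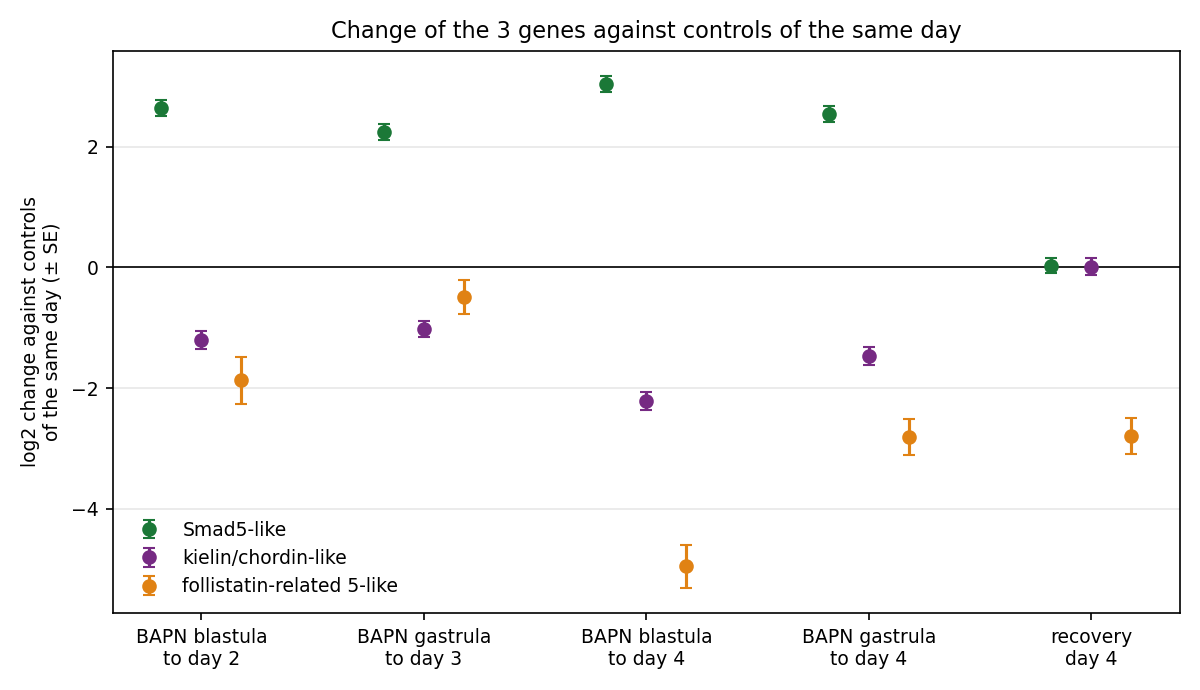
Log2 change of the 3 genes against controls of the same day; points are estimates of edgeR's model on 16 libraries and bars are ± 1 SE. In recovery Smad5-like and kielin/chordin-like lie near 0 and follistatin-related 5-like at -2.8.

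Levels can be compared between the genes per kilobase of deposited length. In the day 4 controls the mean level was 34.9 CPM per kb for Smad5-like, 17.8 for follistatin-related 5-like and 9.3 for kielin/chordin-like. In blastula to day 4 it was 288, 0.574 and 2.01 CPM per kb in the same order, so the secreted pair stood in the opposite order to the day 4 controls. In the day 2 controls kielin/chordin-like was already the higher of the pair, at 3.34 against 1.08 CPM per kb, and in the day 3 controls at 7.62 against 4.41 CPM per kb.

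The 3 genes followed different courses in untreated embryos. The control libraries also entered the comparisons on which the genes were chosen, so these courses are descriptions with no p-value. The kielin/chordin-like gene rose from day 2 to day 3 by a log2 change of 1.19 ± 0.15. Follistatin-related 5-like rose by 2.02 ± 0.31 over the same interval, and Smad5-like differed by -0.32 ± 0.12. Of all genes 16.4% passed here (edgeR quasi-likelihood, Benjamini-Hochberg adjusted p under 0.05). From day 3 to day 4 follistatin-related 5-like rose by 2.02 ± 0.28, where 13.7% of all genes passed. Over that interval kielin/chordin-like gave 0.29 ± 0.14 and Smad5-like -0.1 ± 0.12.

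Comparisons among the treated groups combine the values on which the genes were chosen, so they too are descriptions. In day 4 embryos from which BAPN had been removed, Smad5-like was lower than in those kept in it from the same start, by a log2 change of -3.01 ± 0.13, or 8.05-fold. The kielin/chordin-like gene was higher by 2.21 ± 0.15, or 4.64-fold. Follistatin-related 5-like was higher by 2.16 ± 0.34, or 4.47-fold, and 48.6% of all genes passed in this comparison. Both recovery libraries lay outside both kept libraries for each gene.

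At day 4, 14.2% of all genes passed between the starts of treatment. After the blastula start Smad5-like differed from its level after the gastrula start by a log2 change of 0.5 ± 0.12. The change was -0.74 ± 0.15 for kielin/chordin-like and -2.15 ± 0.34 for follistatin-related 5-like. The groups, of 2 libraries each, did not overlap in any of the 3 genes.

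The BAPN effect of the blastula start at day 4 minus that at day 2, in which 27.5% of all genes passed, was -1.01 ± 0.21 for kielin/chordin-like and -3.09 ± 0.53 for follistatin-related 5-like. For Smad5-like it was 0.4 ± 0.17. Between gastrula to day 3 and blastula to day 2, where 7.01% of all genes passed, the effects differed by -0.39 ± 0.17, 0.18 ± 0.21 and 1.38 ± 0.48 for Smad5-like, kielin/chordin-like and follistatin-related 5-like. The last was 1.94 without day 2 control replicate 2 and 0.6 without day 2 control replicate 1.

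Dose was tested within groups over the 10 treated libraries. The log2 change at 1.2 mM against 0.8 mM was 0.13 ± 0.08 for Smad5-like, -0.11 ± 0.1 for kielin/chordin-like and 0.22 ± 0.22 for follistatin-related 5-like (edgeR adjusted p = 0.78, 0.88 and 0.9, unadjusted p = 0.13, 0.3 and 0.33). Of all genes 0.0121% passed. The widest pair was follistatin-related 5-like in blastula to day 4, at 4.44 CPM with 1.2 mM and 2.54 CPM with 0.8 mM.

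Over the 3 BAPN windows, where 58.3% of all genes passed, each of the 5 further genes named as Smads rose with TMM, DESeq2 size factors and total counts, with a median log2 change of 1.53 against -0.07 for all genes. By window the calls were fewer: 5 of 5 for blastula to day 2, 4 for gastrula to day 3, 4 for blastula to day 4 and 3 for gastrula to day 4. With total counts only they were 3, 2, 4 and 2, and with DESeq2 size factors gastrula to day 4 had 2. Smad4-like (LOC119729887), the shared partner, was at 213 to 281 CPM in the libraries collected in BAPN, 74.6 to 96.7 CPM in controls and a median of 99 CPM in the 2 recovery libraries. It rose by 1.53 ± 0.07 (edgeR adjusted p = 4.1e-14), and its BAPN and control libraries did not overlap. Smad6-like (LOC119745554), the inhibitory Smad, rose by 1.01 ± 0.12 (edgeR adjusted p = 8.8e-07). Its ranges of 123 to 420 CPM in BAPN and 116 to 214 CPM in controls overlapped. They overlapped also within day 4, at 171 and 123 CPM in gastrula to day 4 and 116 and 130 CPM in the controls. Of the Smads of the activin and nodal branch, Smad3-like (LOC119744568) rose by 0.6 ± 0.12 (edgeR adjusted p = 0.00017). In gastrula to day 4 it was at 41 and 49.3 CPM, overlapping the day 4 controls at 45 and 42.6 CPM. The scarce Smad2-like copies LOC119745012 and LOC119744569 rose by 2.36 ± 0.3 and 1.96 ± 0.36 (edgeR adjusted p = 5e-07 and 6.5e-05). How the counting divided reads between similar copies is not given in the sources used here.

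All 5 were lower in recovery than in embryos kept in BAPN, where 23.3% of all genes passed as lower. Their median log2 change was -1.62, against 0.12 for all genes. Smad4-like gave -1.41 ± 0.12 and Smad6-like -1.62 ± 0.21 (edgeR adjusted p = 3.1e-09 and 4.2e-06). Scaled by total counts only, 4 of the 5 passed. For recovery against the day 4 controls their edgeR adjusted p ran from 0.47 to 0.95. Per kilobase, the mean level over 16 libraries was 140 CPM per kb for Smad5-like, 98 for Smad6-like, 32.1 for Smad4-like, 20.5 for Smad3-like, and 2.29 and 1.97 for the Smad2-like copies.

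**Figure D3:**
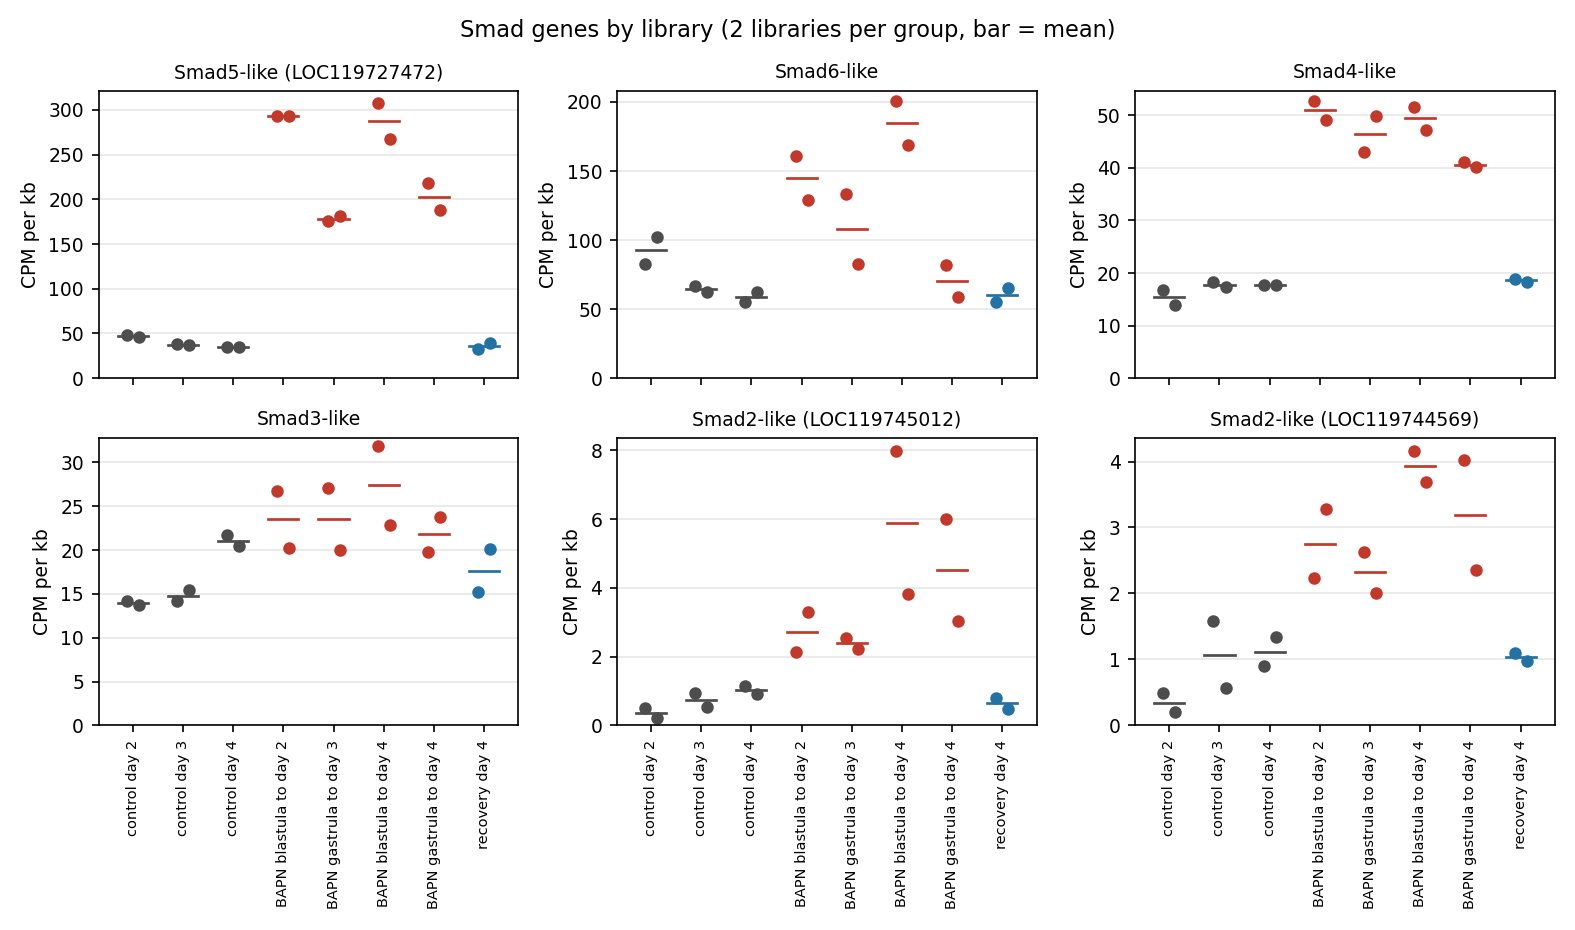
Level of the Smad genes in CPM per kb of deposited length (linear axes) by group; points are libraries and bars are means of 2 libraries. Smad4-like is at 40.1 to 52.8 CPM per kb in the 8 libraries collected in BAPN and at 14 to 18.2 CPM per kb in the 6 controls.

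The relatives of the secreted pair did not all move with it. The second kielin/chordin-like gene (LOC119737586), at 5.37 to 26.3 CPM, fell by 0.61 on the log2 scale over the 3 windows (SE 0.21, edgeR adjusted p = 0.015). Its change was -1.5 ± 0.36 for blastula to day 4 and -0.13 ± 0.36 for blastula to day 2 (edgeR adjusted p = 0.0014 and 0.82). It was higher in recovery than in kept embryos by 1.41 ± 0.36 (edgeR adjusted p = 0.0025). Chordin-like (LOC119731780), the BMP antagonist, gave -0.05 ± 0.19 over the windows (edgeR adjusted p = 0.85), with 117 to 532 CPM in BAPN and 268 to 422 CPM in controls. This mean joins windows of opposite direction. Mean levels in BAPN and controls were 522 and 357 CPM at day 2, 334 and 387 CPM at day 3, and 213 and 299 CPM for blastula to day 4. The libraries of blastula to day 4 were at 117 and 308 CPM. Chordin-like protein 1 (LOC119724159) gave 0.52 ± 0.2 over the windows (edgeR adjusted p = 0.035), but its direction turned with time. It rose by 1.38 ± 0.36 for blastula to day 2 and was lower by -0.9 ± 0.36 for gastrula to day 4 (edgeR adjusted p = 0.0037 and 0.047), while blastula to day 4 gave -0.53 ± 0.36 (edgeR adjusted p = 0.23).

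Follistatin-A-like (LOC119742042), related to the activin-binding protein follistatin, had 0 counts in the 4 blastula-start libraries kept in BAPN. The floor of 3 counts is 0.248 to 0.304 CPM in the libraries collected in BAPN and covers counting error only. It was at 1.51 to 6.17 CPM in controls and 1.64 to 2.55 CPM in recovery. The gastrula-start libraries had 0.495 and 2.51 CPM at day 3, the latter within the control range, and 0.454 and 0.5 CPM at day 4. The mean over the windows passed as lower (edgeR adjusted p = 3.9e-06), while gastrula to day 3 alone did not (edgeR adjusted p = 0.52). The follistatin-related 1-like genes LOC119735395 and LOC119735470 had 23 and 13 counts in all libraries and were not tested.

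Words in product names gave 77 further genes of BMP, nodal and activin signalling, of which 61 were tested. Over the 3 windows 33 were higher and 16 lower, 80.3% of those tested against 58.3% of all genes, and their median log2 change was 0.5. By direction 28.1% of all genes were higher and 30.1% lower. With total counts only, 28 were higher and 20 lower. A group at 0 counts occurred for 4 of the 61, and the median was 0.5 also with these held at the floor.

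Of 11 tested ligands 7 were higher and 4 lower. BMP2-A-like (LOC119741091) rose by 0.71 ± 0.08 (edgeR adjusted p = 1.1e-07) and passed in each window. The mean of 0.97 ± 0.12 for nodal (LOC119731756; edgeR adjusted p = 5.4e-07) came from blastula to day 4, at 2.73 ± 0.21, since the day 2 and day 3 windows gave 0.15 ± 0.19 and 0.04 ± 0.2 (edgeR adjusted p = 0.59 and 0.92). In recovery both were above the day 4 controls, by 0.69 ± 0.14 and 1.6 ± 0.21 (edgeR adjusted p = 0.0013 and 1.9e-05). Of 13 tested receptors and co-receptors 4 were higher and 4 lower, and 3 and 7 with total counts only. The called share of 61.5% was near that of all genes. The co-receptor repulsive guidance molecule A-like (LOC119740390) fell by 0.2 on the log2 scale (SE 0.07, edgeR adjusted p = 0.023). Of the windows it passed only in blastula to day 4 (-0.57 ± 0.13, edgeR adjusted p = 0.00085). Nodal modulator 1-like (LOC119735620), placed in this role by words in its product name, gave 0.08 ± 0.08 (edgeR adjusted p = 0.41).

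Of 6 nuclear partners and turnover factors 4 were higher and 2 lower, among them the Smad corepressor ski oncogene-like (LOC119731781) at 0.5 ± 0.09 and ZEB1-like (LOC119729527) at 0.41 ± 0.09 (edgeR adjusted p = 8.8e-05 and 0.00078). Of its 3 windows, ski oncogene-like (LOC119731781) passed only at day 2, at 1.22 ± 0.16 (edgeR adjusted p = 3e-06). ZEB1-like (LOC119729527) passed only in blastula to day 4, at 1.32 ± 0.16 (edgeR adjusted p = 6.8e-07), with 0 ± 0.16 and -0.1 ± 0.16 in the day 2 and day 3 windows. Of 9 other secreted modulators 2 were higher and 4 lower, and 1 and 5 with total counts only. Of 9 tested proteinases 5 were higher and 1 lower. The procollagen proteinase BMP1 homolog (LOC119731558) rose by 0.8 ± 0.08 (edgeR adjusted p = 7.1e-09), with 0.15 ± 0.13 for blastula to day 4 (edgeR adjusted p = 0.34). Tolloid-like 1 (LOC119745357) gave a mean of 0.32 ± 0.12 (edgeR adjusted p = 0.033), but rose by 0.93 ± 0.22 for blastula to day 2 and 0.74 ± 0.21 for gastrula to day 3 and was lower by -0.71 ± 0.22 for blastula to day 4 (edgeR adjusted p = 0.0017, 0.01 and 0.0099).

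Of 8 tested genes in families known as BMP targets 6 were higher and 1 lower, with a median of 1.02. ID-2-like (LOC119728498), an inhibitor of helix-loop-helix factors, rose by 1 ± 0.07 (edgeR adjusted p = 4.1e-11) and passed in each window. TBX2-like (LOC119727010) rose by 0.8 ± 0.18 (edgeR adjusted p = 0.0031), of the windows passing only in blastula to day 4 (1.39 ± 0.32, edgeR adjusted p = 0.004). The exception, named after its values were seen, was a second TBX2-like gene (LOC119730635), which changed by -2.7 ± 0.18 (edgeR adjusted p = 7.4e-10).

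**Figure D4:**
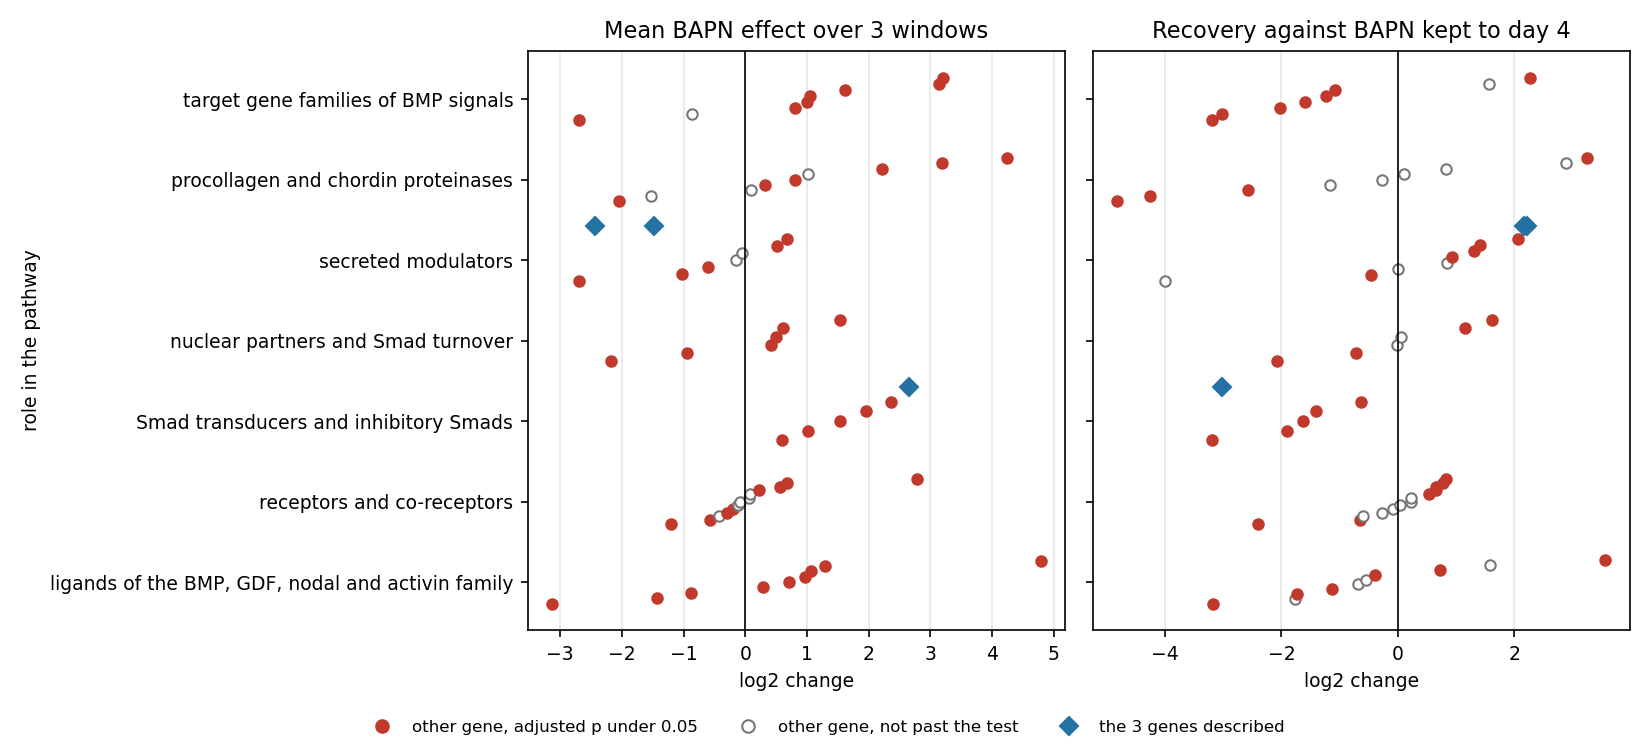
Log2 change of each tested pathway gene by role, over the 3 BAPN windows (left) and in recovery against embryos kept in BAPN (right); genes with a group at 0 counts are not drawn. The 5 other Smads lie above 0 on the left and below 0 on the right, on the same side as Smad5-like.

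In recovery against kept embryos 17 of the 61 were higher and 23 lower, 65.6% against 48.6% of all genes. With total counts only, 22 were higher and 19 lower. Of the target families 1 was higher and 6 lower, and of the secreted modulators 5 were higher and 1 lower. Against the day 4 controls 23% of those tested passed, where 15.9% of all genes did, 7.27% higher and 8.65% lower. In the list 13 were higher in recovery and 1 lower, tolloid-like 1 (LOC119745357) at -0.99 ± 0.22 (edgeR adjusted p = 0.0028). Between the starts at day 4, 14 were higher and 4 lower after the blastula start, and 11 and 8 with total counts only. That was 29.5% of those tested against 14.2% of all genes with TMM, the latter 6.31% higher and 7.84% lower. In controls 3 rose and 10 fell from day 2 to day 3, 21.3% against 16.4% of all genes, and 4 and 7 with total counts only. From day 3 to day 4, 1 rose and 7 fell, and 1 and 15 with total counts only. The share called from day 3 to day 4 was 13.1%, against 13.7% of all genes. For dose 0 of 60 passed with edgeR, where 0.0121% of all genes did. An unadjusted p under 0.05 in edgeR was reached by 13, and DESeq2 called 2. The matching shares of all genes are not given here, so these counts are not read as a result about the list.

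The summed levels of marker genes also differed between the BAPN and control libraries, in both directions. The summed level of 36 neuron genes was 1010 to 1570 CPM in the libraries collected in BAPN, 1860 to 2410 CPM in controls and 2110 to 2120 CPM in recovery, with none of the 36 at 0 in all libraries. Of 35 tested, 4 were higher and 18 lower over the windows. The summed level of 22 muscle genes was 1900 to 2170 CPM in BAPN, 2580 to 4810 CPM in controls and 3720 to 3910 CPM in recovery, with none at 0, and 3 of 21 were higher and 10 lower. The summed cilia genes were at 2350 to 3320 CPM in BAPN and 3790 to 3950 CPM in controls. The mesenchyme sum was at 2670 to 4850 CPM in BAPN and 1290 to 2720 CPM in controls, and higher in BAPN within each day. The gut sum was at 693 to 1720 CPM in BAPN and 348 to 1010 CPM in controls, and higher in each window except gastrula to day 4. Of 76 cilia genes tested 3 were higher and 43 lower, of 48 gut genes 15 and 14, and of 43 mesenchyme genes 18 and 11. The share called was 62.9% for neurons, 61.9% for muscle, 60.5% for cilia, 60.4% for gut and 67.4% for mesenchyme, against 58.3% of all genes. In recovery the sums of cilia, mesenchyme and gut genes were 3400 to 3700, 1660 to 1740 and 475 to 482 CPM. Each of these lay below both day 4 controls, as did the recovery sums of neurons and muscle. The day 4 controls were at 2320 to 2410 CPM for neurons, 4630 to 4810 CPM for muscle and 3790 to 3830 CPM for cilia. They were at 2630 to 2720 CPM for mesenchyme and 882 to 1010 CPM for gut. The part of these marker genes in the values of the 3 genes was not tested.

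Across the 16 libraries the correlation of log2 CPM was -0.874 between Smad5-like and kielin/chordin-like, -0.636 between Smad5-like and follistatin-related 5-like, and 0.856 between the secreted pair. These values are descriptions, and the points share the split between BAPN and controls. Among 10593 named genes, those most like Smad5-like were a cyclin-T-like gene (LOC119745697) and the phenylalanine tRNA ligase beta subunit (LOC119732265), both at r = 0.991. Most like kielin/chordin-like were a GABA transporter 1-like gene (LOC119738784, r = 0.982) and vinculin-like (LOC119725907, r = 0.979). Most like follistatin-related 5-like were adenylate cyclase 9-like (LOC119727883, r = 0.976) and an MFSD8-like gene (LOC119727423, r = 0.972).

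The nearest genes on the scaffolds were also measured over the 3 windows. Histamine N-methyltransferase A-like (LOC119727471) ends 531 bases before Smad5-like, with 153 counts in all, and gave -1.62 (edgeR adjusted p = 0.11). STK31-like (LOC119732437) lies 63 bases before follistatin-related 5-like on the opposite strand and rose by 0.5 (edgeR adjusted p = 4.9e-05). Steroid 17-alpha-hydroxylase-like (LOC119732440), 3241 bases after the same gene, rose by 1.51 (edgeR adjusted p = 4.8e-12). The uncharacterized LOC119721938, 5711 bases before kielin/chordin-like, rose by 0.9 (edgeR adjusted p = 9.4e-06). CLIP1-like (LOC119727474), 29144 bases after Smad5-like, gave -0.24 (edgeR adjusted p = 0.067). A U5 spliceosomal RNA gene (LOC119722243) overlaps kielin/chordin-like on the opposite strand and had 0 counts.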

How the data were processed

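For 16 stranded paired-end polyA libraries the authors deposited raw counts, with a length in bases for each gene. The sources used here name no aligner, counter, strand setting or build. Coordinates of 27818 of 27818 genes match the Pmin_3.0 reference table. No deposited column of per-sample values was left unused.

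Genes were filtered with edgeR 4.0.16 (minimum count 10, minimum total 15), leaving 17519 and removing 10299, of which 4125 had no count. Counts were scaled by TMM. A single robust quasi-likelihood fit covered 8 groups (8 residual degrees of freedom) in R 4.3.3. P-values were Benjamini-Hochberg adjusted over all genes tested, and calls were made at 0.05. The SE is the log2 change over the square root of F. Log2 CPM used a prior count of 2. DESeq2 1.42.0, DESeq2 size factors, total counts only, no filter, fits of only the groups compared, a replicate block and leaving out each library were alternatives. The fits were tested on simulated data.

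The 3 genes and the lists were chosen with earlier results of these data known. Recovery against kept embryos, the difference between starts and differences between windows were planned as tests of the 3 genes, but they combine the choosing comparisons and are given without p-values. The comparisons between control days were planned as tests too. They share control libraries with the choosing comparisons, so for the 3 genes they are also given without p-values. Pathway and marker lists are words in product names; neuropilins were removed from the proteinases after names were seen. Named genes are the 3 genes, their relatives by name, the 2 most abundant genes of each other role, the genes most correlated with each, and scaffold neighbours. With 9945801 to 14383817 counts per library, 3 counts are the floor of detection, for counting error only.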

Additional observations from a re-analysis of the deposited data

Results flagged for a closer look

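In the fit of all 16 libraries the level at day 4 differed between the starts of BAPN in all 3 genes, as a description. The log2 difference of the blastula start from the gastrula start was 0.5 ± 0.12 for Smad5-like, -0.74 ± 0.15 for kielin/chordin-like and -2.15 ± 0.34 for follistatin-related 5-like, with 2 libraries per group. Without gastrula to day 4 replicate 2 the difference was 0.39 for Smad5-like. When only these groups were fitted the difference was 0.49 for Smad5-like and -0.75 for kielin/chordin-like.

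The effect of the blastula start at day 4 also differed from that at day 2, by -1.01 ± 0.21 for kielin/chordin-like and -3.09 ± 0.53 for follistatin-related 5-like. The genes were chosen on the differences that these comparisons combine, so these values are descriptions and not independent evidence.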

How the results depend on the processing

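No alternative turned the direction of a change of the 3 genes that was larger than 2 SE. The balance of pathway calls did turn with total counts only in recovery against kept embryos, from 17 higher and 23 lower to 22 and 19. With total counts only, the log2 change of Smad5-like was 2.4 for blastula to day 2, 2.03 for gastrula to day 3, 2.84 for blastula to day 4 and 2.42 over the 3 windows, and that of kielin/chordin-like was -1.45, -1.24, -2.41 and -1.7. The day 4 minus day 2 effect of Smad5-like was then 0.44, and 16 pathway genes were called between day 4 and day 3 controls. When only the groups compared were fitted, the difference between starts was 0.49 for Smad5-like and -0.75 for kielin/chordin-like. In such a fit day 4 against day 3 controls gave 0.27 for kielin/chordin-like. Pathway calls were then 7 between starts, 28 between day 4 and day 3 controls and 27 for recovery against day 4 controls. With DESeq2 the day 3 against day 2 controls gave -0.34 for Smad5-like, and 2 pathway genes were called for dose. Without a filter the day 3 minus day 2 effect was 1.36 for follistatin-related 5-like and 4 pathway genes were called for dose. The cause of these changes was not tested.

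Leaving out each library in turn gave, for Smad5-like, 0.39 to 0.61 between starts, -0.37 to -0.29 for day 3 against day 2 controls, 0.33 to 0.49 for the day 4 minus day 2 effect, 2.43 to 2.67 for gastrula to day 4 and -0.1 to 0.18 for recovery against day 4 controls. For kielin/chordin-like it gave -1.33 to -1.14 for blastula to day 2 and -0.1 to 0.13 for recovery against day 4 controls. For follistatin-related 5-like it gave -2.41 to -1.08 for blastula to day 2 and 0.6 to 1.94 for the day 3 minus day 2 effect. Pathway calls ran from 7 to 20 between starts, 6 to 17 and 5 to 12 in the control comparisons, 4 to 10 for the day 3 minus day 2 effect, 0 to 1 for dose and 7 to 17 for recovery against day 4 controls.

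The labels name a control for 6 treated libraries, and deviations of such pairs correlated at 0.013, -0.007 and 0.023 on days 2, 3 and 4. The treated deviations also hold the dose difference, so this check cannot show whether such pairs shared a culture or handling. With a replicate block of these pairs the change over the 3 windows was 2.61 for Smad5-like, -1.52 for kielin/chordin-like and -2.47 for follistatin-related 5-like, and 45 pathway genes were called. Low counts limit follistatin-related 5-like at day 2.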
